A study of Mus musculus with 2 samples.

Results

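The genes described here are the nuclear-encoded genes of the mitochondrial respiratory chain and ATP synthase in endothelial cells of the mouse sciatic nerve. Membership goes by symbol and uses no measured value: every feature whose symbol starts with Nduf, Uqcr, Atp5, Cox4, Cox5, Cox6, Cox7 or Cox8, with Sdha, Sdhb, Sdhc, Sdhd and Cycs, and without symbols that carry the pseudogene mark -ps. This gave 93 genes of 53380 features. The study sequenced RNA of single cells from adult mice in which Cdh5(PAC)-CreERT2, a Cre recombinase that tamoxifen activates in Cdh5-expressing endothelium, switches on the R26-TomatoLSL reporter. Both groups carry these alleles, and from pooled nerves of both the cells with tdTomato and without CD45 were sorted. The intact group came from uninjured sciatic nerves, and the injured group from the bridge, the tissue at the lesion, 7 days after injury. Each group is 1 library of pooled animals whose exact age, strain and sex are not given in the sources used here. No test was therefore possible, and the 95% intervals below cover counting error only. Injury cannot be told apart from differences in the tissue taken, animals, sorting or sequencing.

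The respiratory chain lies in the inner mitochondrial membrane. Complexes I and II pass electrons from NADH and succinate to ubiquinone, complex III passes them to cytochrome c, complex IV passes them to oxygen, and the proton gradient built on the way drives ATP synthase. Most subunits are encoded in the nucleus and imported, while a few core subunits and the mitochondrial ribosomal RNAs are made from mitochondrial DNA, so the complexes need transcripts from both genomes. Endothelial cells are known for drawing much of their ATP from glycolysis, and the transcription factor NRF1 is known for binding promoters of many nuclear respiratory genes.

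NRF1 binding sites are therefore the sequence feature that these promoters are best known to share. RefSeq promoter windows (GRCm38.p6, 250 bases before to 50 after each start) were on hand for 75 of the 93 genes, in 80 windows. The NRF1 core CGCATGCG, which reads the same on both strands, lay in 12 of the 80 windows (15%), against 4.09% of 8182 windows of all measured genes and 1.87% of all 32851 windows. The 30 bases around each match follow, 5′ to 3′ on the gene's strand, with the core in capitals, in the order of the genes' log2 ratios in the injured against the intact library. They show that the same core stood beside genes at both ends of the range described below.

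Atp5g2 (chr15:102671070-102671099, minus strand): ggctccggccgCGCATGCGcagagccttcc
Atp5l (chr9:44920963-44920992, minus strand): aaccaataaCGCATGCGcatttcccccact
Ndufaf5 (chr2:140170652-140170681, plus strand): agtcccgttggCGCATGCGcctaatagaaa
Ndufaf4 (chr4:24897960-24897989, plus strand): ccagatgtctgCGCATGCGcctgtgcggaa
Cox6a1 (chr5:115349101-115349130, minus strand): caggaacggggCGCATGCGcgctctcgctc
Atp5j (chr16:84835105-84835134, minus strand): aggccagaataCGCATGCGtacagtgcagt
Cycs (chr6:50566612-50566641, minus strand): ccatgctagctCGCATGCGcgcgcacaaac
Uqcr11 (chr10:80406808-80406837, minus strand): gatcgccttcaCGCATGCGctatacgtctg
Atp5k (chr5:108434430-108434459, minus strand): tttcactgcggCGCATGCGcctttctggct
Uqcrc1 (chr9:108936668-108936697, plus strand): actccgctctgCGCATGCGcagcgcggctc
Ndufa11 (chr17:56717692-56717721, plus strand): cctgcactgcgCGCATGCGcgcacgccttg
Ndufa8 (chr2:36049329-36049358, minus strand): gtcgctggagaCGCATGCGcagatggtacc

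The order runs from Atp5g2 and Atp5l, which were lower in the injured library, to Ndufa8, which was among the highest ratios of all 93 genes. Ndufaf5 did not reach the level called measured below, and the interval of its ratio (0.942, 0.644 to 1.41) included 1. The gene with the lowest ratio, Ndufb4, had no NRF1 core in its window and is shown for its ERR site (AAGGTCA, the core bound by estrogen-related receptors), again in capitals. It was picked by its ratio and does not stand for the genes with this site. The 8 measured members with an ERR site had a median log2 ratio of 0.34 (range -1.003 to 0.62), beside 0.45 for the 61 without.

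Ndufb4 (chr16:37654405-37654434, minus strand): tcctgagcctgAAGGTCAgactcgagaggg

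A match here is a match of letters and not a measured binding site.

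Each gene is given by its unique molecules (UMIs), added up over cells and expressed as CPM (counts in 1000000). The values are for 718 intact cells (4542225 UMIs, median 4461 per cell) and 1274 injured cells (19989024 UMIs, median 11684) that the authors placed in 9 endothelial classes. The libraries shared 298 barcodes, so 100 intact and 48 injured cells whose barcode had at least 5 times more UMIs in the other library were left out. Another 66 and 77 analysed cells still shared a barcode. The 8 endothelial markers, such as Pecam1 and Cdh5, were all detected and summed to 4917 CPM in intact cells and 5144 CPM in injured cells. Markers of other cell types were lower in the injured library: pericyte and smooth muscle markers summed to 1057 and 212 CPM, perineurial markers to 596 and 145, red cell markers to 277 and 35.0, fibroblast markers to 60.5 and 36.1, and myeloid markers to 35.2 and 8.90. The perineurial sum is not one of other cells alone. Of its 4 markers, Slc2a1 is also among the 8 barrier endothelial markers, which summed to 2711 and 437 CPM. The barrier class EC_BAR held 181 of the intact and 36 of the injured cells. The myeloid markers Ptprc, C1qa and Tyrobp were at 0 in both libraries, and skeletal muscle markers stood at 0.220 and 0.750 CPM. The sex makeup of the pools also differed, with Xist, the RNA of the inactive X chromosome, at 282 and 939 CPM and Y-linked Ddx3y at 55.9 and 19.8 CPM. How far these differences bear on the genes below was not tested.

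Transcripts of the respiratory chain genes took a larger share of the RNA in the injured library. Summed, the 93 genes stood at 15887 CPM in intact cells (95% interval 15771 to 16003) and 21499 CPM in injured cells (21435 to 21563), or 1.59% and 2.15% of all UMIs. Such shares cannot tell more of these transcripts from fewer of the others. The sum was 1.35-fold higher (1.34 to 1.36) in the injured library. Of the 93 genes, 81 reached a mean of 10 CPM over the libraries, the level called measured here, and 12 did not. The median log2 ratio of the measured members (injured against intact, 5 CPM added to both values) was 0.45, beside 0.04 over all 8268 measured genes.

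The shift was broad and small rather than carried by a few genes. At least 25% higher in the injured library were 52 of the 81 genes (64.2%), where 28.9% of all measured genes were, and 3 genes (3.70%) were at least 20% lower, the same factor downwards, where 24.4% of all measured genes were. The remaining 26 lay between. None of the 81 was 2-fold higher, a size that 4.79% of measured genes reached, and Ndufb4 alone was 2-fold lower, which 6.82% of measured genes were. The count also depended on which cells were read. Over all barcodes of both matrices, with cells the authors left without a class, the sum was 19383 and 21731 CPM, and of 84 genes then measured 19 were at least 25% higher and 10 at least 20% lower, where 23.2% and 27.8% of all genes measured in those barcodes were. The unannotated barcodes themselves stood at 22698 CPM in the intact and 22660 CPM in the injured library.

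**Figure D1:**
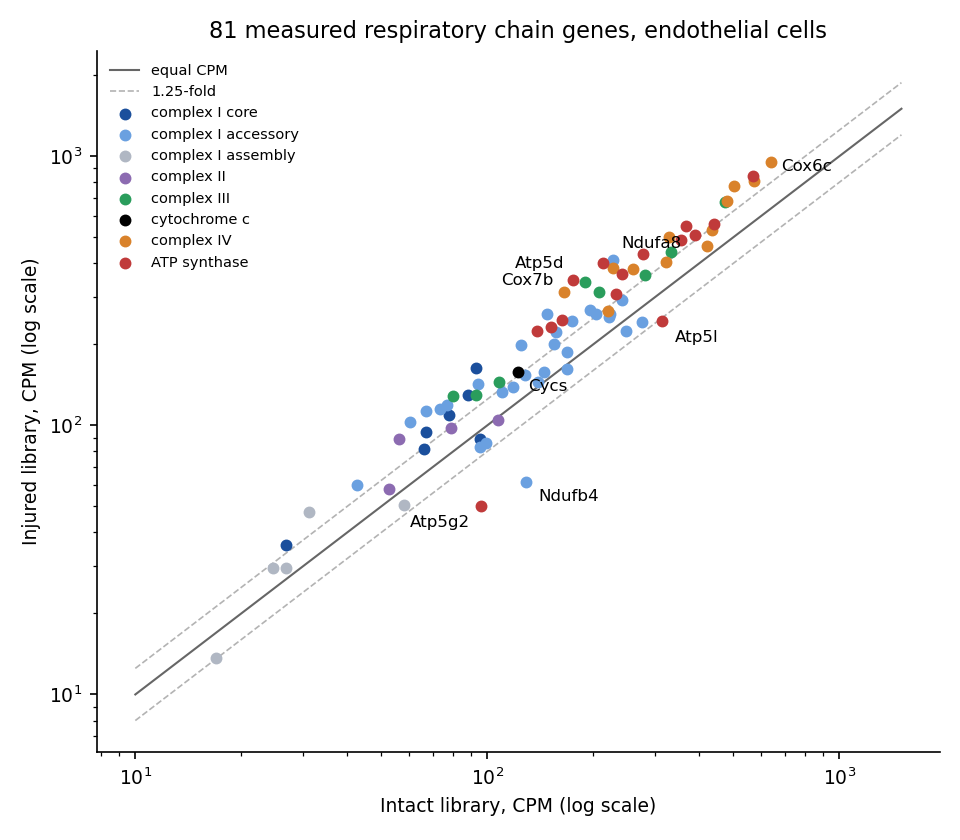
CPM of each of the 81 measured genes in the intact (x axis) and injured library (y axis), both log scales, coloured by complex, with lines at equal CPM and at 25% higher or 20% lower. Most points lie above the line of equal CPM, 52 of them above the upper broken line, and Ndufb4, Atp5g2 and Atp5l lie below the lower one.

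Complex I, the entry point for NADH, has a core that carries the flavin and iron-sulfur clusters, and many accessory subunits around it. The 7 nuclear core genes summed to 514 CPM in intact cells and 704 CPM in injured cells, 1.37-fold higher (1.31 to 1.43), and 5 of the 7 were at least 25% higher. Ndufv2, an iron-sulfur subunit of the NADH-oxidising module, was at 87.8 and 129 CPM, 1.47-fold higher (1.32 to 1.64). At the other end Ndufs3 was at 66.3 and 81.9 CPM (ratio 1.24, 1.09 to 1.402). Ndufs7, which holds the last iron-sulfur cluster, was at 95.1 and 89.1 CPM, and the interval of its ratio (0.937, 0.843 to 1.04) included 1. The median log2 ratio of the core genes was 0.46.

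The 29 accessory genes moved less as a group and spread more. They summed to 4309 and 5294 CPM, 1.23-fold higher (1.21 to 1.247), with a median log2 ratio of 0.27. Of the 29, 14 passed 25% higher, 1 passed 20% lower and 14 lay between. Among all measured genes 28.9% and 24.4% passed these bounds. Ndufa8, an accessory subunit with cysteine motifs on the intermembrane space side, stood at 228 CPM in intact cells and 410 CPM in injured cells, 1.80-fold higher (1.69 to 1.92). Ndufb5, of the membrane arm, was at 147 and 259 CPM, 1.76-fold higher (1.62 to 1.91). Both were high in the injured library.

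Ndufb4 (GRCm38 chromosome 16, 37647170 to 37654453, minus strand), a membrane arm subunit, went the other way. Its level was 128 CPM in intact cells and 61.5 CPM in injured cells, 2.09-fold lower (1.89 to 2.30) and the lowest log2 ratio of all 81 genes. Words of 31 bases from its transcripts were shared with other genes' transcripts for 19.1%, most of them with Ndufb4c, so part of its reads could have been split between copies. Ndufab1, the mitochondrial acyl carrier protein that is also part of complex I, was at 99.3 and 85.8 CPM, 1.16-fold lower (1.04 to 1.28).

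Assembly factors, which help to build complex I and leave it, differed least. The 8 Ndufaf genes summed to 178 and 195 CPM, a ratio of 1.10 (1.02 to 1.18). Of the 5 measured, 1, Ndufaf2, was at least 25% higher (31.04 and 47.4 CPM). This count was not above the background of 28.9% of all measured genes. Ndufaf2 is named after its value was seen, and it shares 65.1% of its words with transcripts of B230220B15Rik, so its value is uncertain. Ndufaf8, which the naming rule picks, was at 58.1 and 50.5 CPM, 1.15-fold lower (1.00 to 1.32).

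Complex II, succinate dehydrogenase, is the only complex of the chain with no subunit from mitochondrial DNA, and it also works in the citric acid cycle. Its 4 genes summed to 295 and 349 CPM, 1.18-fold higher (1.12 to 1.26). The subunits did not move by the same factor. Sdha, the flavoprotein, was level at 107 and 104 CPM (ratio 0.971, 0.880 to 1.07). Sdhb, the iron-sulfur subunit, was at 78.8 and 97.9 CPM (1.24, 1.11 to 1.39). Of the membrane anchors, Sdhc was at 52.4 and 57.9 CPM (1.11, 0.961 to 1.28), an interval that includes 1. The other anchor, Sdhd, was at 56.1 and 89.1 CPM, 1.59-fold higher (1.39 to 1.82), and was the only complex II gene at least 25% higher. That size was reached by 28.9% of all measured genes.

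In complex III every gene was higher. Its 8 genes summed to 1764 and 2535 CPM, 1.44-fold higher (1.403 to 1.47). All 8 were at least 25% higher, where 28.9% of all measured genes were, with log2 ratios from 0.36 to 0.83. Uqcrq, a small subunit near the quinone site, stood at 190 and 341 CPM, 1.80-fold higher (1.68 to 1.93). Uqcrfs1, the Rieske iron-sulfur protein, was at 79.9 and 129 CPM, 1.61-fold higher (1.44 to 1.81). The smallest ratios were those of Uqcr11 at 281 and 362 CPM (1.29, 1.21 to 1.37) and Uqcrb at 333 and 439 CPM (1.32, 1.247 to 1.39). Cycs, the cytochrome c that carries electrons on to complex IV and also takes part in apoptosis, was at 122 and 158 CPM, 1.29-fold higher (1.18 to 1.42).

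Complex IV, cytochrome c oxidase, includes genes for tissue isoforms, and only those of the common forms were measured. Of 20 genes 12 were measured, 9 of them at least 25% higher, where 28.9% of all measured genes were. None was below its intact level, where 3864 of all 8268 measured genes were. The sum was 4579 and 6463 CPM, 1.41-fold higher (1.39 to 1.43). Cox7b (chromosome X, 106015700 to 106022450), a small membrane subunit, was at 165 and 313 CPM, 1.90-fold higher (1.76 to 2.06). Cox5a, which sits on the matrix side, was at 227 and 386 CPM, 1.70-fold higher (1.59 to 1.82). The sex makeup of the pools differed, and the ratios of the 3 X-linked genes were 1.90 for Cox7b, 1.403 for Ndufa1 and 1.14 for Ndufb11. A part of sex in them was not tested.

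The common isoforms were all higher, by smaller factors. Cox4i1, the subunit on which much of the regulation of the enzyme is known to converge, was at 571 and 806 CPM, 1.41-fold higher (1.36 to 1.47). Cox8a was at 481 and 684 CPM (1.42, 1.36 to 1.49), Cox6b1 at 328 and 502 CPM (1.53, 1.45 to 1.62) and Cox7a2 at 321 and 405 CPM (1.26, 1.19 to 1.33). Less than 25% higher were Cox6a1 at 219 and 265 CPM (1.21, 1.13 to 1.29), Cox7a2l, known for linking complexes III and IV, at 435 and 533 CPM (1.22, 1.17 to 1.29), and Ndufa4, a late-joining subunit, at 421 and 462 CPM (1.10, 1.04 to 1.15), which turned to a log2 ratio of -0.082 when classes were weighted equally.

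The muscle, testis or low-oxygen isoforms stood below 6 CPM in both libraries or had no UMI. No UMI was found for Cox6a2, Cox7b2 or Cox8c, which allows up to 0.660 CPM in intact cells and 0.150 CPM in injured cells (3 UMIs), and Cox8b had 1 and 0 UMIs. Cox6b2 had 26 and 28 UMIs (5.72 and 1.401 CPM), 4.09-fold lower in CPM in the injured library (2.30 to 7.23). Of its UMIs 19 and 7 lay in the authors' class EC_VEN-PV+ (14.1 and 1.47 CPM). It stood at 4.12 and 3.80 CPM in EC_CAP-PV-, 2.03 and 3.48 CPM in EC_VEN-PV-, 0 and 0.492 CPM in EC_ART and 1.47 and 0 CPM in EC_BAR. The pooled decrease was thus not shared by all classes. Cox7a1, the heart and muscle form, had 15 and 19 UMIs (3.30 and 0.951 CPM), 3.47-fold lower (1.64 to 7.22). Ndufa4l2, known as a hypoxia-induced form of Ndufa4, had 12 and 16 UMIs (2.64 and 0.800 CPM), 3.30-fold lower (1.43 to 7.44), though its log2 ratio was 0.24 in cells of 6000 to 12000 UMIs. Cox4i2, a form known from lung and low oxygen, had 6 and 5 UMIs (1.32 and 0.250 CPM), 5.28-fold lower (1.34 to 21.9). All 4 were lower in CPM in the pooled cells of the injured library, as were the pericyte and smooth muscle markers (1057 and 212 CPM). A part of such cells in these low counts was not tested.

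ATP synthase held the highest ratio, and its isoforms differed in direction. Its 15 genes summed to 4120 and 5797 CPM, 1.41-fold higher (1.39 to 1.43), and 13 were at least 25% higher while 2 were lower. Atp5d (chromosome 10, 80138632 to 80145818), the delta subunit of the rotating stalk, was at 175 and 346 CPM, 1.98-fold higher (1.84 to 2.13) and the highest log2 ratio of the 81 genes (0.96). Atp5f1, the b subunit of the outer stalk, was at 213 and 400 CPM, 1.88-fold higher (1.75 to 2.01). The others that were higher, Atp5a1 and Atp5b of the catalytic part among them, ranged from 0.35 (Atp5j) to 0.68 (Atp5o) in log2 ratio.

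The c ring of ATP synthase is built from a single mature protein that 3 genes encode with different import sequences. Atp5g1 stood at 151 and 232 CPM, 1.53-fold higher (1.41 to 1.66). Atp5g3 stood at 163 and 247 CPM, 1.51-fold higher (1.4004 to 1.64). Atp5g2 (chromosome 15, 102662864 to 102672352) was instead at 95.8 and 50.1 CPM, 1.91-fold lower (1.70 to 2.14). Atp5l, the g subunit of the membrane part, was at 313 and 243 CPM, 1.29-fold lower (1.21 to 1.37). Of the words of Atp5g2 40.2% recur in other genes' transcripts, mostly in Gm10175, and of those of Atp5l 14.2%, so how reads of copies were assigned could touch both. The same holds for genes that were higher: Atp5o shares 49.6% of its words, Uqcrb 34.8%, Ndufb6 34.4%, Cycs 29.4%, Cox7c 24.5% and Atp5f1 17.7%. Atp5s, a coupling factor that is no subunit, was not measured (5.06 and 4.45 CPM).

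**Figure D2:**
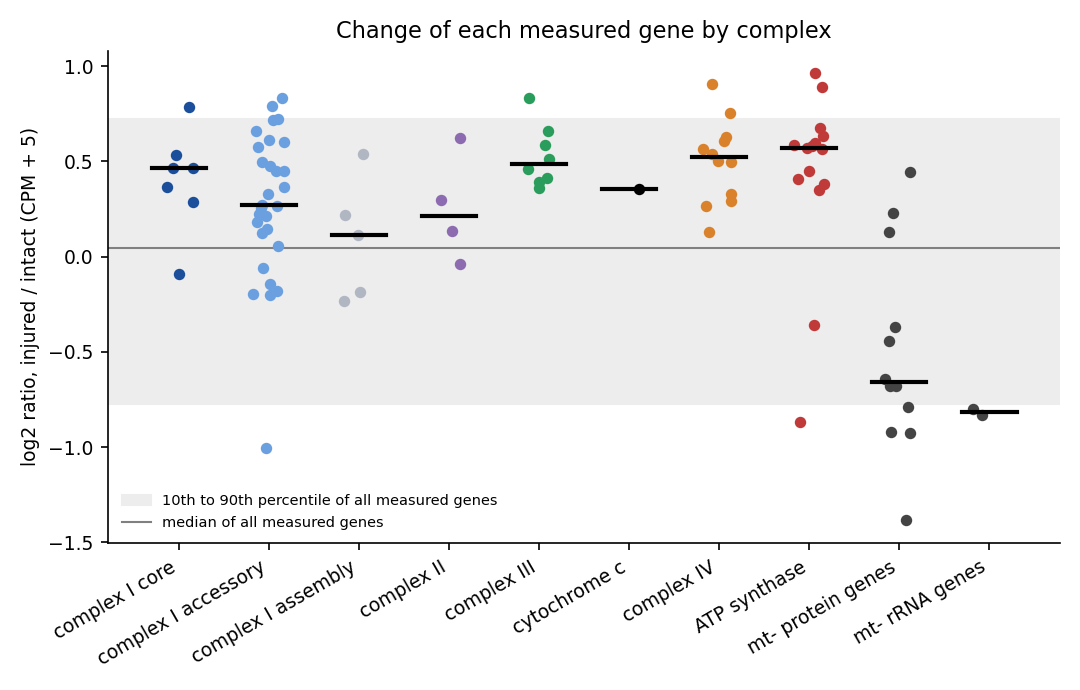
Log2 ratio (injured against intact, 5 CPM added) of each measured gene by complex, with black bars at the group medians, a grey line at the median of all 8268 measured genes (0.04) and a grey band from their 10th (-0.77) to 90th (0.72) percentile. Complexes III and IV lie wholly above 0, complex I accessory and ATP synthase genes include 3 genes at least 20% lower, and most mt- genes lie below 0.

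Transcripts of the mitochondrial genome took a smaller share of the RNA in the injured library, against the direction of the nuclear genes. The 37 mt- genes summed to 49414 CPM in intact cells and 35829 CPM in injured cells, a ratio of 0.725 (0.722 to 0.729). Most of the difference lay in the ribosomal RNAs, at 32142 and 18125 CPM (0.564, 0.560 to 0.567). The 13 protein genes together were nearly level, at 17239 and 17698 CPM (1.03, 1.02 to 1.03). UMIs of nuclear members per UMI of all mt- genes went from 0.321 to 0.600, and per UMI of the mt- protein genes from 0.922 to 1.21.

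The level sum of the mt- protein genes hid opposite directions. Higher in the pooled cells were mt-Cytb, the cytochrome b of complex III, at 4602 and 6260 CPM (1.36, 1.34 to 1.38), mt-Nd4 at 2859 and 3352 CPM (1.17, 1.15 to 1.20) and mt-Nd1 at 3039 and 3329 CPM (1.10, 1.08 to 1.12). Lower were the other 9 measured, among them mt-Co1, the catalytic subunit of complex IV, at 1689 and 1052 CPM (1.61-fold lower, 1.56 to 1.65). The complex I genes mt-Nd2 (3445 and 2668 CPM, 1.29-fold lower) and mt-Nd5 (848 and 622 CPM, 1.36-fold lower) were lower too. In the pooled cells complex III was thus higher in both its nuclear genes and mt-Cytb, while complex IV was higher in its nuclear genes and lower in mt-Co1. By class, mt-Cytb was higher in 4 of the 5 compared below, from 1.16 (EC_VEN-PV+) to 1.60 (EC_ART), and lower in EC_VEN-PV- (0.947, 0.905 to 0.990). The ratio of mt-Nd4 was 1.63 in EC_ART, 1.38 in EC_BAR and 1.24 in EC_CAP-PV-. It was below 1 in EC_VEN-PV+ (0.899, 0.871 to 0.928) and EC_VEN-PV- (0.892, 0.842 to 0.946). For mt-Nd1 it was 1.33 in EC_ART, 1.15 in EC_CAP-PV- and 0.707 in EC_VEN-PV-, with intervals that included 1 in EC_BAR and EC_VEN-PV+. Nuclear copies of mitochondrial DNA limit this: mt-Co2, mt-Co3, mt-Atp6, mt-Nd4l and mt-Nd3 share at least 98.1% of their words with annotated nuclear copies, mt-Co1 shares 63.9% and mt-Nd4 62.8%, but mt-Cytb 6.55% and mt-Nd1 0%.

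Within the authors' classes the sum of the nuclear members was higher in the injured library each time. A class was compared where both libraries kept at least 20 cells, which left 5 of the 9. EC_CAP-PV+ was not compared, with 42 intact and 13 injured cells (members at 18104 and 20044 CPM). In arterial EC_ART (91 and 144 cells) it was 15081 and 19688 CPM, 1.31-fold higher (1.28 to 1.34). In EC_VEN-PV+ (213 and 362 cells) it was 15631 and 19978 CPM, 1.28-fold higher (1.26 to 1.30). In EC_CAP-PV- (128 and 76 cells) it was 16554 and 19867 CPM, 1.20-fold higher (1.17 to 1.23). Under the label EC_VEN-PV- (44 and 121 cells) it was 15296 and 18122 CPM, 1.18-fold higher, and in EC_BAR (181 and 36 cells) it was 15923 and 18337 CPM, 1.15-fold higher (1.12 to 1.18). All 5 ratios were below the pooled 1.35.

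The class names are the authors', and the sources used here do not spell out PV. Among the 10 genes most enriched in a class, EC_ART, EC_BAR, EC_CAP-PV- and EC_VEN-PV+ held more markers of their own type than of any other in both libraries. EC_VEN-PV- did not, since in intact cells it held 2 red cell markers, the capillary marker Car4 and 1 venous marker, and in injured cells it held none of the venous markers, so only the label is compared. Depth differed within classes too, with median UMIs of 2628.5 and 11917 in EC_CAP-PV- and of 4682 and 7906 in EC_BAR.

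Counts of higher genes lay above the background in 3 classes and nearer to it in the other two. In EC_ART 42 of 81 genes (51.9%) were at least 25% higher and 4 lower, where 30.6% and 28.7% of all measured genes were. In EC_VEN-PV+ 39 (48.1%) were higher and 5 lower (all genes 28.4% and 22%), and in EC_CAP-PV- 38 (46.9%) were higher and 10 lower (26.6% and 35.5%). Under EC_VEN-PV- 33 (40.7%) were higher and 6 (7.41%) lower, against 34.6% and 23.9%, with a median log2 ratio of 0.21 for the members beside 0.09 for all genes. In EC_BAR 26 genes (32.1%) were higher and 12 lower, against 32% and 26.9% of all genes, so the higher share matched the background there and only the lower share was below it. EC_BAR also has the fewest injured cells of the 5 classes compared. The median ratio of the members there was 0.19 in log2, beside 0.06 for all genes.

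Of the 81 measured genes 43 were above their intact level in all 5 classes, 33 were mixed and 5 were below it in all 5. As shares these were 53.1% above and 6.17% below, beside 19% and 13.8% of all 8268 measured genes. The 5 classes come from the same 2 libraries. Those 5, named after their values were seen, were Ndufb4, Ndufab1 and Ndufa12 of complex I and Atp5g2 and Atp5l of ATP synthase. Ndufb4 ranged from -0.78 (EC_ART, 108 and 60.5 CPM) to -1.49 (EC_VEN-PV-, 140 and 46.7 CPM) in log2 ratio. Atp5g2 ranged from -0.66 in EC_CAP-PV- (65.9 and 39.9 CPM) to -1.06 in EC_VEN-PV+ (97.4 and 44.0 CPM). Atp5d, the highest gene in the pooled cells, was above 0 in all 5, from 0.61 in EC_BAR (174 and 268 CPM) to 0.90 in EC_VEN-PV+ (167 and 316 CPM). The pooled direction of these 3 genes thus recurred in all 5 classes.

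For Cycs a difference was clear of counting error in EC_ART alone, at 119 and 163 CPM (ratio 1.37, 1.06 to 1.79). Its intervals included 1 in EC_VEN-PV+ (109 and 130 CPM, 0.995 to 1.44), EC_BAR (124 and 121 CPM, 0.681 to 1.37), EC_CAP-PV- (146 and 119 CPM, 0.603 to 1.10) and EC_VEN-PV- (130 and 112 CPM, 0.642 to 1.17). Ndufa4 did not keep a direction. Ndufa4 was lower in EC_CAP-PV- (442 and 284 CPM, -0.63) and higher in EC_VEN-PV+ (467 and 527 CPM, 0.17). The differences between classes were not tested, as each class has 1 library per group.

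**Figure D3:**
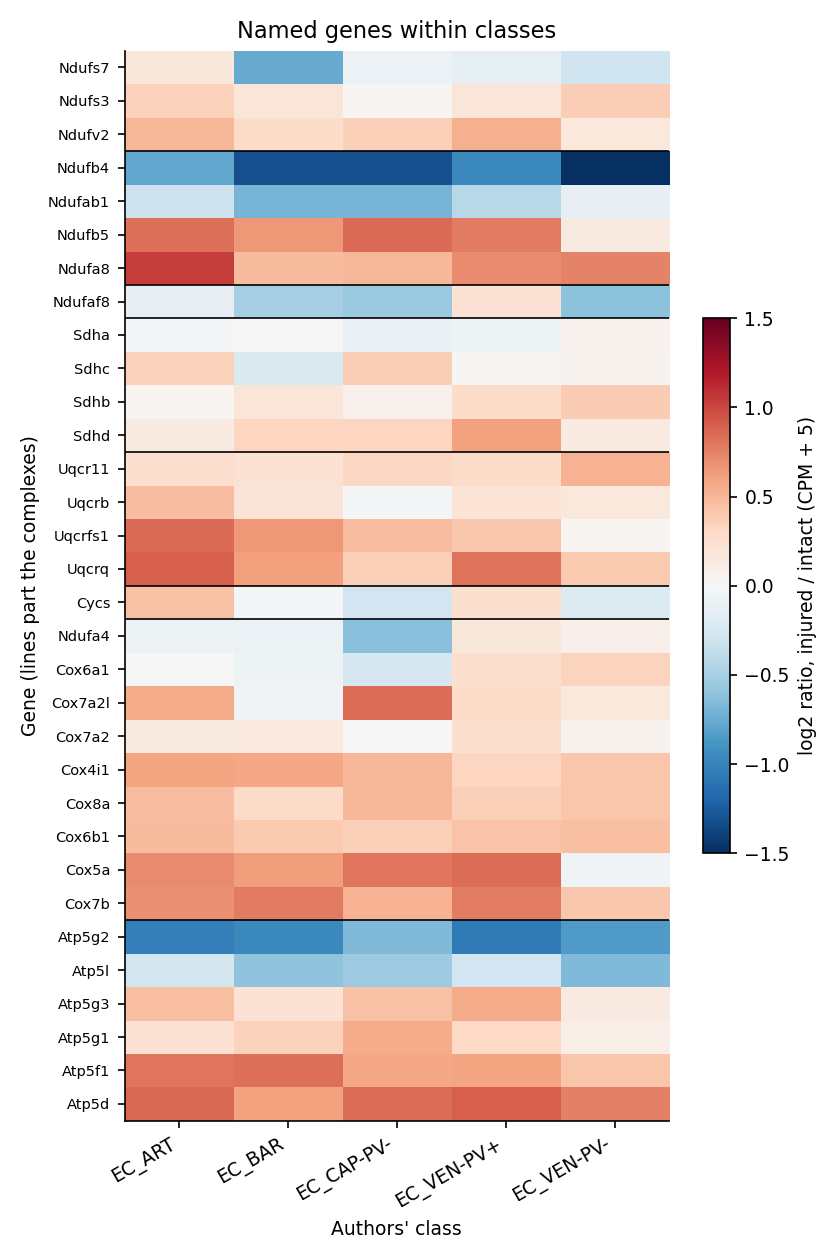
Log2 ratio (injured against intact, 5 CPM added) of 32 measured named genes in the 5 classes with at least 20 cells in both libraries, with red above 0, blue below 0 and lines between complexes. Ndufb4, Ndufab1, Atp5g2 and Atp5l are blue in every class, Atp5d and Ndufa8 red in every class, and Ndufa4 and Cycs change colour between classes.

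By complex, the sizes differed between classes. Complex III was higher in all 5 classes, by 1.247-fold (EC_VEN-PV-) to 1.48-fold (EC_ART), and complex IV by 1.22-fold (EC_BAR) to 1.4002-fold (EC_ART). Complex I core genes ranged from 1.10-fold in EC_BAR, with an interval that included 1 (0.944 to 1.29), to 1.37-fold in EC_ART. ATP synthase ranged from 1.15-fold in EC_BAR to 1.32-fold in EC_VEN-PV+. Accessory genes ranged from 1.03-fold in EC_BAR (0.972 to 1.08) to 1.20-fold in EC_ART. The sum of all mt- genes was lower in 4 classes (0.858 in EC_ART, 0.713 in EC_CAP-PV-, 0.721 in EC_VEN-PV+ and 0.752 in EC_VEN-PV-), while in EC_BAR it was level (0.984, 0.967 to 1.00). The mt- protein genes differed in direction by class, from 0.747 in EC_VEN-PV- to 1.28 in EC_ART.

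The highest levels of the members were in classes that the intact library barely held. In injured cells EC_PROLIF, the dividing class (162 cells), stood at 23742 CPM, EC_IMMAT (260 cells) at 23204 CPM and EC_TIP, named for sprouting tip cells (100 cells), at 22670 CPM, above the 5 other classes with at least 20 cells (18122 to 19978 CPM). These 3 had 11, 4 and 4 intact cells, so no ratio is given, and EC_IMMAT has no marker set by which to check its name. Their mt- sums, 33241, 31317 and 33348 CPM, were the lowest of the 8 injured classes. Cells of EC_PROLIF and EC_TIP were also the deepest, with medians of 24212.5 and 16011.5 UMIs, while EC_IMMAT had a median of 11256. Of the 81 genes, 42 had their highest level of the 8 classes in EC_PROLIF, 18 in EC_IMMAT and 12 in EC_TIP, and 35 had their lowest in EC_VEN-PV- and 25 in EC_BAR. As shares these were 51.9%, 22.2% and 14.8% of the members for the highest level, beside 16.8%, 5.30% and 13.5% of all measured genes, and 43.2% and 30.9% for the lowest level, beside 14.1% and 27.6%. The shares for EC_TIP and EC_BAR were thus near those of genes at large. Cycs was at 218 CPM in EC_PROLIF and 112 CPM in EC_VEN-PV-. The fold of CPM between a gene's highest and lowest class had a median of 1.53 over the 81 genes, from 1.22 for Ndufa11 to 2.92 for Ndufaf4, whose lowest level (14.1 CPM in EC_BAR) rests on 5 UMIs. Without EC_IMMAT, EC_PROLIF and EC_TIP the pooled sums were 15813 and 19572 CPM, with a median log2 ratio of 0.30 for the members beside 0.05 for all measured genes.

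**Figure D4:**
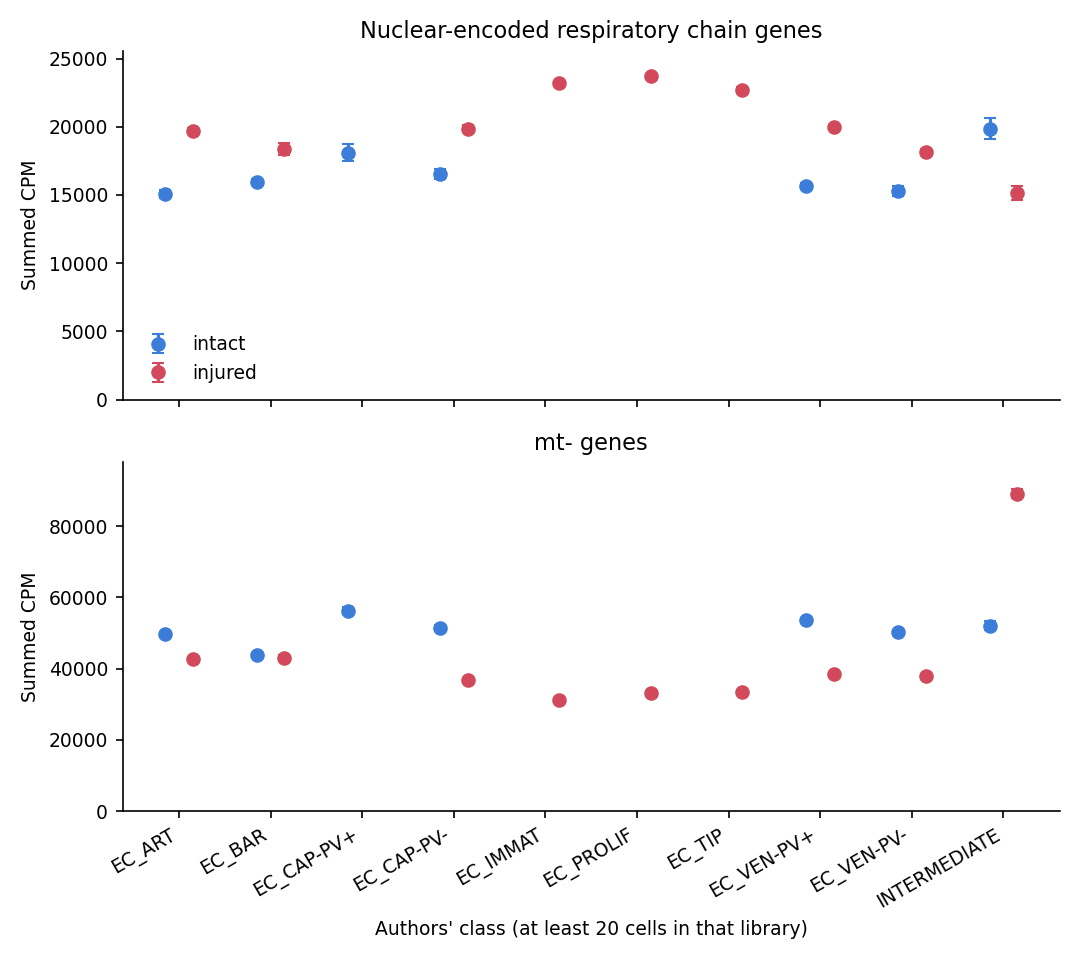
Summed CPM of the nuclear members (upper panel) and of the mt- genes (lower panel) by class in the intact and injured library, with exact 95% Poisson intervals, for classes with at least 20 cells in that library. Injured points lie above intact ones for the members in the 5 endothelial classes with both, EC_PROLIF, EC_IMMAT and EC_TIP are the highest, and INTERMEDIATE goes the other way in both panels.

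INTERMEDIATE, the class outside the 9 endothelial ones, behaved differently. Its 46 intact and 88 injured cells stood at 19852 CPM (19118 to 20606) and 15149 CPM (14661 to 15649) for the members, and at 52094 and 89061 CPM for the mt- genes. Its 10 most enriched genes included 2 fibroblast markers in both libraries, and in the injured library they also included S100a8, S100a9 and Camp, genes known from neutrophils, so its leading genes differed between the libraries, and its cells were shallow, with medians of 1284.5 and 1844 UMIs.

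Single cells gave the same direction as the sums. The median share of a cell's UMIs in the 93 genes was 1.598% in intact cells (quartiles 1.32 and 1.93%) and 2.10% in injured cells (1.76 and 2.40%), and the median mt- share was 4.94% and 3.56%. The quartile ranges of the member share thus overlapped between the libraries. After thinning to 3000 UMIs, with 236 intact and 51 injured cells left out as shallower, the medians were 1.58% and 2.07%. Across cells of a library the member share and the mt- share ran against each other, with Spearman rho -0.40 over 718 intact and -0.51 over 1274 injured cells (-0.35 and -0.46 after thinning). Both are shares of the same total of UMIs, and the cells of a library share its preparation.

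Depth moved with the result. In cells under 3000 UMIs (236 intact and 51 injured) the member sum was 16952 and 15649 CPM, a ratio of 0.923 (0.875 to 0.974), the opposite direction. From 3000 to 6000 UMIs it was 16663 and 19841 CPM (1.19), from 6000 to 12000 UMIs 15841 and 20867 CPM (1.32), and at 12000 or more 15238 and 21783 CPM (1.43). The intact level was lower in deeper cells and the injured level was higher in them. The mt- sum followed the reverse order in the shallowest cells, at 58138 and 65404 CPM, and was lower in the injured library in the 3 deeper bands. What sets the link to depth was not tested, and EC_PROLIF and EC_TIP cells are among the deep injured cells.

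**Figure D5:**
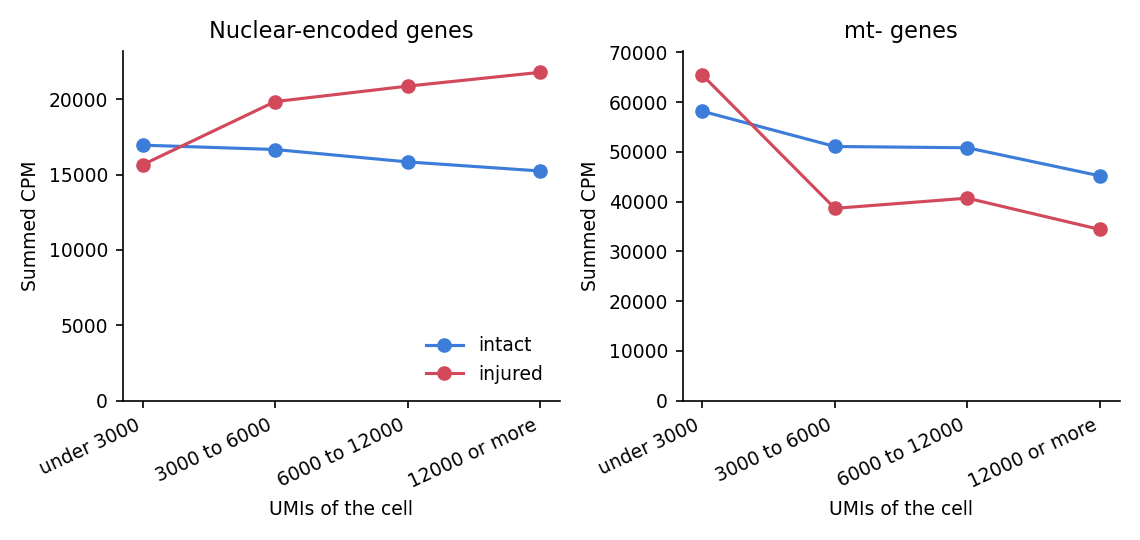
Summed CPM of the nuclear members (left) and of the mt- genes (right) in cells grouped by their UMIs, for the intact and injured library. Member levels cross between the shallowest band, where the injured library is lower (15649 against 16952 CPM), and the deeper bands, where it is higher.

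Genes that work beside the chain were read from lists by the same counts. All 17 measured genes of the citric acid cycle and pyruvate dehydrogenase were at or above their intact level, 10 of them at least 25% higher (58.8%), with a median log2 ratio of 0.40. Idh2, the mitochondrial NADP-dependent isocitrate dehydrogenase, was at 33.0 and 58.9 CPM (1.78, 1.503 to 2.13), and Ogdh, of the oxoglutarate dehydrogenase complex, was level at 74.0 and 74.1 CPM (1.00, 0.890 to 1.13). Of the mitochondrial ribosome, which translates the mt- transcripts, 43 of 74 measured genes (58.1%) were higher and 1 (1.35%) lower (median 0.38). The background is again 28.9% and 24.4%. Mrpl34 was at 41.8 and 120 CPM (2.87, 2.48 to 3.35), and Mrpl27, the lowest at the naming level, was level at 59.2 and 58.7 CPM. The sum of the mitochondrial ribosomal protein genes was 1.45-fold higher (1.42 to 1.47).

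Carriers stood out by size. Of 8 measured genes 7 (87.5%) were at least 25% higher and 1 (12.5%) lower, where 28.9% and 24.4% of all measured genes were. At least 2-fold higher were 4 of the 8, a size that 4.79% of all measured genes reached. Atpif1, the inhibitor that keeps ATP synthase from running backwards, was at 142 and 444 CPM, 3.13-fold higher (2.89 to 3.40), a larger ratio than that of any ATP synthase subunit gene. The other 3 past 2-fold, named after their values were seen, were the phosphate carrier Slc25a3 (336 and 692 CPM), the ADP/ATP carrier Slc25a5 (230 and 481 CPM) and the outer membrane channel Vdac1 (64.5 and 152 CPM). Ucp2, an uncoupling protein family member, was at 90.3 and 45.0 CPM, 2.00-fold lower (1.78 to 2.26).

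Assembly factors outside the symbol rule differed less, with 7 of 21 measured genes (33.3%) higher and 2 (9.52%) lower (median 0.17). The higher share was near the 28.9% of all measured genes, and the lower share was below their 24.4%. Uqcc2, which assists complex III, was at 92.5 and 139 CPM (1.5008, 1.35 to 1.67), and Cox17, the copper chaperone for complex IV, at 139 and 95.6 CPM, 1.45-fold lower (1.32 to 1.59). Regulators of mitochondrial biogenesis had no common direction, with 2 of 8 measured genes (25%) higher and 1 (12.5%) lower. Their higher share too was near that of all measured genes. Tfam, which packages and transcribes mitochondrial DNA, was at 25.3 and 35.4 CPM (1.397, 1.15 to 1.72), and Hif1a, the oxygen-regulated factor, at 172 and 241 CPM (1.399, 1.30 to 1.51). Nrf1, whose protein binds the core shown above, was at 22.7 and 15.2 CPM, 1.496-fold lower (1.18 to 1.88). Myc was at 68.5 and 57.5 CPM, 1.19-fold lower (1.05 to 1.35), and Ppargc1a, the coactivator PGC-1alpha, had 5 and 4 UMIs.

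Cytosolic ribosomal protein genes and glycolysis genes were also higher as groups. Of 86 measured cytosolic ribosomal protein genes 45 (52.3%) were at least 25% higher and 4 (4.65%) lower (median 0.33). All measured genes gave 28.9% and 24.4%. The sum of the cytosolic ribosomal protein genes was 1.26-fold higher (1.257 to 1.263). Rplp0 (2091 and 4648 CPM) and Rpl23a (767 and 545 CPM) were its ends. Of 13 measured glycolysis genes 7 (53.8%) were higher and 1 (7.69%) lower (median 0.46), and the sum was 1.49-fold higher (1.46 to 1.52). Pgk1, which makes ATP in glycolysis, was at 68.9 and 168 CPM (2.44, 2.18 to 2.75), and Pfkfb3, which makes the activator of phosphofructokinase, was at 108 and 16.0 CPM, 6.76-fold lower (5.86 to 7.81). The medians of the members (0.45) and of glycolysis (0.46) were thus alike in size, and no test of their difference was possible with 1 library per group.

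The promoter motifs did not sort the members by their ratio. The 11 measured genes with an NRF1 core had a median log2 ratio of 0.36 (range -0.87 to 0.83) and the 58 with a window but no core 0.46 (-1.003 to 0.96). The ETS core CCGGAAG, bound by GABPA among others, lay in 22.5% of the members' windows, against 18.7% of those of measured genes and 8.86% of all. The YY1 core AAGATGG lay in 13.8%, 7.57% and 6.34%, and the ERR site AAGGTCA in 10%, 2.76% and 4.72%. Both strands were searched. Of the members' windows 47.5% held at least 1 of these 4 motifs, against 29.6% of the windows of measured genes, and members with any of them had a median of 0.39 (36 genes) beside 0.46 (33 genes) for those with none.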

How the data were processed

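Single cells of 1 intact and 1 injured library were read. The deposited matrices hold counts of UMIs per feature and barcode, with no normalization, made with Cell Ranger 3.0.2 per the file headers. The submitters' processing notes also name Cell Ranger 6.1.2, the builds GRCm38 and mm10, and Seurat 4.0.1. Cell classes are the authors' deposited labels. The sources used here do not say how cells were filtered or checked for doublets, and no doublet caller was run. Cells without a class, and those whose barcode had at least 5 times more UMIs in the other library, were left out.

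UMIs were summed over cells and scaled to CPM. CPM carry exact Poisson and ratios exact conditional binomial 95% intervals, which cover counting error only. Intervals and ratios were run on data simulated with counting error only, which is the error that the intervals assume. Spread between cells or libraries was not simulated, so the simulation cannot speak to it. Log2 ratios had 5 CPM added, and a mean of 10 CPM or more made a gene measured. Positions come from GENCODE M21 (GRCm38): all 93 members had the same gene ID there, 78 with the same version. Shared sequence was read as 31-base words of transcripts found in other genes. The 7 -ps symbols were left out. The protein comparison that was planned was not made, as protein sequences were not used here.

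The symbol rule for the members uses no measured value, but this group of genes and the other lists were chosen with earlier results of these data known. Named genes were the 2 highest and 2 lowest log2 ratios of each complex at 50 CPM or more, the isoform pairs, complex II and Cycs, and the ends of each other list. One gene that this rule picks is not reported here. Alternatives changed the cells kept, the scaling, the added CPM, the minimum level, the depth and the class weights. Of these, leaving out EC_IMMAT, EC_PROLIF and EC_TIP, and using cells of one depth band, were chosen after seeing the data. Python 3.11.15, numpy 2.4.6, pandas 2.3.3, scipy 1.17.1 and matplotlib 3.10.9 were used.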

Additional observations from a re-analysis of the deposited data

Results flagged for a closer look

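Ndufa4, a late-joining subunit of complex IV, differed in direction between classes. Its log2 ratio (injured against intact, 5 CPM added) was -0.63 in EC_CAP-PV- and 0.17 in EC_VEN-PV+, and the counting intervals of the 2 ratios lay on opposite sides of no change. Each class has 1 library per group, so the difference itself was not tested.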

How the results depend on the processing

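The directions of the summed members (log2 ratio 0.44), the summed mt- genes (-0.46) and the members' median (0.45) held under every alternative run for each except cells under 3000 UMIs, where they turned to -0.12, 0.17 and -0.094, with 13 genes higher and 22 lower. The 4 depth bands and the setting without 3 classes were chosen after seeing the data. Members and mt- genes stood at 0.42 and -0.45 with all annotated endothelial cells kept, 0.42 and -0.48 per UMI outside mt- genes, 0.50 and -0.40 outside mt- and ribosomal protein genes, 0.39 and -0.51 under median-ratio scaling, 0.39 and -0.42 after thinning to 3000 UMIs, 0.41 and -0.23 in cells with under 5% mt- UMIs, 0.40 and -0.44 without EC_PROLIF, and 0.38 and -0.49 without any shared barcode. They were 0.29 and -0.32 with equal class weights (median 0.29, 5 lower), 0.31 and -0.33 without EC_IMMAT, EC_PROLIF and EC_TIP (median 0.30, 6 lower), 0.25 and -0.40 in cells of 3000 to 6000 UMIs (median 0.27, 33 higher, 6 lower), 0.40 and -0.32 at 6000 to 12000 UMIs, and 0.52 and -0.39 at 12000 or more. Over all barcodes they were 0.16 and -0.72, with a median of 0.15, 19 genes higher and 10 lower. Of all genes measured in those barcodes 23.2% were higher and 27.8% lower. The mean of per-cell CPM gave 0.35 for the members and 5 lower genes, thinning gave 6 lower genes, and no minimum level 6. Except over all barcodes, the counts under these alternatives have no share of all genes beside them. They are therefore not read as a result about the members. Ndufa4 turned to -0.082 with equal class weights and Ndufa4l2 to 0.24 in cells of 6000 to 12000 UMIs. For named genes 290 of 429 values stayed within counting error of the main value, 137 moved past it and 2 reversed. For sums within classes 20 of 35 stayed and 15 moved. No paired analysis was possible because each group has 1 library, and genes of few UMIs are limited by depth.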
